A study of Mus musculus with 20 samples.

Results

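The 9 genes described here, Apoe, Clu, Cst3, Timp4, Itih3, Htra1, Selenop, Sparcl1 and Mfge8, encode proteins that astrocytes, the star-shaped glia of the brain, are known to make and secrete. They were listed by symbol with earlier results of these data in view, and are treated as selected on their genotype differences in IP and Input, the 2 fractions described below. All 9 were found, 1 identifier each, among 25317 gene identifiers. Their genotype values are therefore given with no test. IP was tested against Input over all genes, and the count of members called is a description. RNA was measured in the cerebral cortex of C57BL/6 mice aged 3 months, 1 animal per sample. Heterozygous animals (het729, het786 and hetBT13) carried a deletion of 1 copy of Foxp2, the gene of a forkhead transcription factor of deep-layer cortical neurons, and wild-type animals (wt734, wt736, wt785, wtBT13 and wtBT14) carried none. Each animal gave a fraction pulled down with an anti-GFP serum in translating ribosome affinity purification (IP) and a portion of the same lysate taken before the pull-down (Input), so RNA on GFP-tagged ribosomes can be set against the RNA of the whole lysate within an animal. Which cells carried the GFP tag, how the deletion was made and the sex of the animals are not given in the sources used here. Another 4 libraries, of the heterozygotes het730 and hetBT14, are labelled Input but titled IX or IXX and have no IP, so their values are only described.

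Secreted proteins are translated at the endoplasmic reticulum, where a short leucine-rich start of the chain, the signal peptide, threads them into the secretory route. In the brain, astrocytes supply the lipoprotein particles built on apolipoproteins, the inhibitors that hold extracellular proteases in check, selenium for neurons, and matrix-like proteins that act on synapses and on the removal of debris. Several of these genes are active in other cells as well, since microglia make Cst3 and Apoe, and the choroid plexus makes Clu and Selenop.

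The first 75 bases of each coding frame are shown because they encode the part that sends the protein into the secretory route. They run 5′ to 3′ from the start codon of the longest frame in GENCODE M21 (mouse GRCm38, the assembly called mm10), with leucine codons in capitals.
Apoe: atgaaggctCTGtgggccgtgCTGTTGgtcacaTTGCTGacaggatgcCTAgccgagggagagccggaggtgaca
Clu: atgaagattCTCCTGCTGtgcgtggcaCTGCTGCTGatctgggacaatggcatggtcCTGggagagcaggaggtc
Cst3: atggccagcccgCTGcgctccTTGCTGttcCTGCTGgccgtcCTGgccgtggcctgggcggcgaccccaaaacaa
Timp4: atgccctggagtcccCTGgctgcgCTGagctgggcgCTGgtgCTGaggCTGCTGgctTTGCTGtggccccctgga
Itih3: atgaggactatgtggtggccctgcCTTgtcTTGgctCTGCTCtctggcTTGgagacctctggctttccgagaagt
Htra1: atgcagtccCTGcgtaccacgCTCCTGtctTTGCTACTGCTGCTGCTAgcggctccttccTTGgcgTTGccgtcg
Selenop: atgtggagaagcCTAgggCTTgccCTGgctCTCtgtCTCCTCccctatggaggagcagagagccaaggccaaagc
Sparcl1: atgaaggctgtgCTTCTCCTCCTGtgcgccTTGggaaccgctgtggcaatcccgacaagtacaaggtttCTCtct
Mfge8: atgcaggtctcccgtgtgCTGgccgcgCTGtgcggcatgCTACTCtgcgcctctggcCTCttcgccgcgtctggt
Between 5 and 11 of the 25 codons encode leucine, against a median of 3 over 21526 genes. Htra1 holds the most, 11, a count that 0.311% of those genes reach. Mfge8 and Itih3 hold the fewest, 5, a count that 22.4% of them reach. In the whole frames leucine codons make up 6.92% in Sparcl1 to 11.2% in Timp4, so the start of every frame is richer in leucine than the frame as a whole.

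Selenop carries its selenium as selenocysteine, an amino acid that is read from the triplet TGA, normally a stop codon. The frame of 380 codons holds 10 such triplets before its stop, and 29 of the 21526 genes have any. Codons 338 to 377, which hold 5 of the 10, are shown with these triplets in capitals, plus strand of chromosome 15.
Selenop: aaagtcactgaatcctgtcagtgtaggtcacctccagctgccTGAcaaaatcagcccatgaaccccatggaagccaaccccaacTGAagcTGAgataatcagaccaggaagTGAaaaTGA

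Because Foxp2 is a forkhead factor, promoters were searched for the forkhead core TGTTTNC on both strands, in windows of 250 bases before to 50 after the start site as RefSeq gives them on GRCm38.p6. The table used holds 7 of the 9 genes, without Clu and Sparcl1. The core occurs in 3 of the 7, Itih3, Selenop and Timp4, and in 20.5% of 32851 promoters of the same length. The 250 bases before the start site are shown for these 3, each on the gene's own strand, with matches to the core in either orientation in capitals.
Itih3, chr14:30923588-30923837, minus strand: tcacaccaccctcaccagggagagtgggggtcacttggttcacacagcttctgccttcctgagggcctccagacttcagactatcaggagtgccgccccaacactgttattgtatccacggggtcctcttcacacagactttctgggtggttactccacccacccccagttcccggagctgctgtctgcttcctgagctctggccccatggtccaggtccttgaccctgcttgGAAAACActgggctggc
Selenop, chr15:3270517-3270766, plus strand: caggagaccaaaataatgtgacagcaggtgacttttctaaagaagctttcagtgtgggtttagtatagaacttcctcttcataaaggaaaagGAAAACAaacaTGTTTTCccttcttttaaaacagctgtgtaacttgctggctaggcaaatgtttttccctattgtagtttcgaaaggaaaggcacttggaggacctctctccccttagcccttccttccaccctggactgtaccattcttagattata
Timp4, chr6:115252206-115252455, minus strand: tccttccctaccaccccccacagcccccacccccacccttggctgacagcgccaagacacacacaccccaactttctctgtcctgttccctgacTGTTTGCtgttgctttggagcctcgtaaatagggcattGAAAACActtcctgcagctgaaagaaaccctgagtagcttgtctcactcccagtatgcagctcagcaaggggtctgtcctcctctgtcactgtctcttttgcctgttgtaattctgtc
The match of Itih3 begins 17 bases before the start site, those of Selenop 158 and 147 bases before it, and those of Timp4 156 and 118. A match of letters is a description, and no binding was measured. Cores of Sox factors (AACAAT), of STAT factors (TTCNNNGAA) and the NFI site, by its full palindrome, occur in 0 of the 7 windows. They occur in 10.7%, 8.3% and 0.0365% of all promoters, searched as the first on both strands. The E-box (CANNTG) occurs in 5 of the 7 windows and the GC box (GGGCGG) in 4, against 72.3% and 35.7% of all promoters. The CRE sequence TGACG occurs in 2 and the TATA box (TATAAA) in 1, against 20.8% and 13.6%. The forkhead core was thus not the only searched motif that was found.

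Libraries held 4917886 to 5337469 counts in heterozygous IP, 4061562 to 5754169 in wild-type IP, 2782934 to 4072270 in heterozygous Input and 3391291 to 3934152 in wild-type Input. The 9 genes together took 0.0845% to 0.105% of the counts in heterozygous IP, 0.102% to 0.144% in wild-type IP, 0.197% to 0.221% in heterozygous Input and 0.211% to 0.321% in wild-type Input. Foxp2 averaged 27.9 ± 3.52 CPM (counts scaled to library size, comparable between libraries) in heterozygous Input and 47.2 ± 10.9 in wild-type Input (SD, n = 3 and 5), 59.2% of the wild-type mean with no overlap between the groups. In IP it averaged 46.6 ± 12.9 CPM in heterozygotes and 69.7 ± 21.2 in wild types, 66.9%, with overlapping groups. Of the IP libraries 1 stood apart, since mitochondrially encoded RNA was 0.398% of counts in the IP of het729, 0.0616% to 0.127% in the other 7 IP libraries and 0.928% to 1.86% in Input. Its effect on the 9 genes is given with the comparisons of IP with Input and of genotypes in IP. Correlations over the IP libraries were not repeated without it. All 22 astrocyte genes of a list of non-secreted markers (such as the water channel gene Aqp4, the glutamate transporter genes Slc1a2 and Slc1a3 and the connexin gene Gja1) were detected, but bulk libraries do not show which cells a transcript came from.

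Per kilobase of exon, in CPM per kb, Cst3 was the most abundant of the 9 in wild-type Input (475 ± 92.7, SD, n = 5). Apoe (376 ± 95.3) overlapped with it. Sparcl1 (218 ± 26.1), Clu (127 ± 17.7) and Selenop (53.4 ± 3.73) each lay below the animals of the gene before. Htra1 (35.6 ± 8.6) and Mfge8 (25.1 ± 4.92) overlapped with each other, and Timp4 (5.66 ± 0.961) and Itih3 (3.41 ± 0.387) were lowest and did not overlap. The order in wild-type IP was flatter at the top. Cst3 (123 ± 18.4), Apoe (88.4 ± 22.4), Sparcl1 (87.4 ± 12.4) and Clu (79.9 ± 18) formed a run of overlapping neighbours, clear of Htra1 (21.2 ± 4.16), Mfge8 (15.4 ± 4.14) and Selenop (9.31 ± 2.69). Timp4 (2.23 ± 0.41) and Itih3 (2.02 ± 0.796) again closed the order, overlapping each other. Selenop stood in place 5 of 9 in Input and 7 of 9 in IP. The exon length used exceeds the transcript of the longest frame, by amounts that differ between genes. It was 4694 against 2125 bases for Mfge8, 2879 against 2041 for Htra1, 3437 against 1810 for Clu and 2937 against 2759 for Sparcl1. The order within the pairs Sparcl1 and Clu, Htra1 and Mfge8, and Cst3 and Apoe in Input therefore depends on the length used. Exons of Timp4 and of Selenop each overlap those of another gene, as described below.

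**Figure D1:**
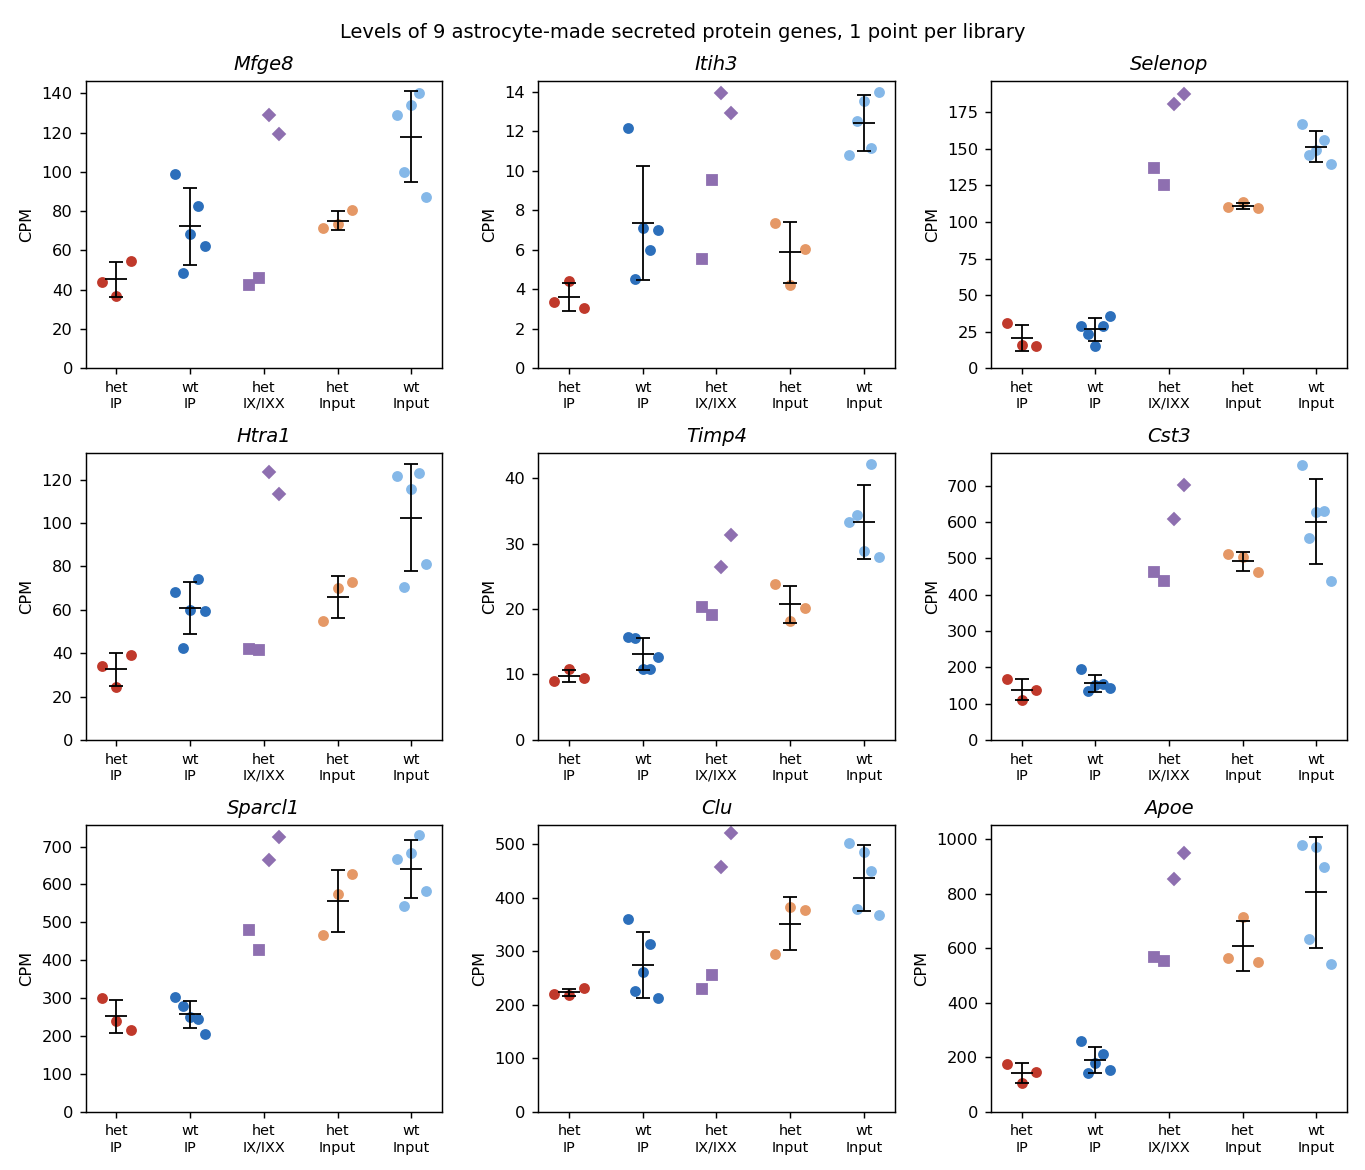
Levels of the 9 genes in CPM (vertical axes start at 0), 1 point per library, with the mean ± SD in black for heterozygous IP (n = 3), wild-type IP (n = 5), heterozygous Input (n = 3) and wild-type Input (n = 5). The 4 IX and IXX libraries have no mean, squares standing for het730 and diamonds for hetBT14. Selenop, Cst3 and Apoe have the lowest IP level as a share of Input, and Itih3 and Htra1 are the genes whose IP libraries do not overlap between genotypes.

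All 9 genes fell in IP relative to Input in wild types, by the quasi-likelihood test of edgeR with Benjamini-Hochberg adjustment over 14797 genes at 0.05, where 25.6% of all genes were called lower and 28.5% higher. In heterozygotes 8 of the 9 fell, against 22.1% of all genes called lower and 22.6% higher, and Itih3 missed the threshold. The median log2 fold change of the 9, IP over Input, was -1.09 in heterozygotes and -1.31 in wild types, while the median over all genes tested was 0.04 and 0.03. The 3 deepest falls were those of Selenop, Apoe and Cst3, which had the 3 lowest ratios among the 9 in 8 of 8 animals. By the fitted value Clu, Mfge8 and Htra1 kept the largest share of their level in IP in wild types, closely followed by Itih3. By the mean share of Input in wild types, Itih3 (61.0%) lay just above Htra1 (60.3%). Without het729 the same 8 genes were called in heterozygotes, with log2 fold changes of -2.88 for Selenop, -2.35 for Apoe, -1.99 for Cst3, -1.42 for Sparcl1, -1.21 for Htra1, -0.92 for Timp4, -0.78 for Mfge8 and -0.77 for Clu, while Itih3 was at -0.46. Members are presented by role, and values are listed for het729, het786 and hetBT13 in that order, and for wt734, wt736, wt785, wtBT13 and wtBT14.

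Apoe (ENSMUSG00000002985, chr7:19696109-19699188, minus strand) encodes apolipoprotein E, the main lipid carrier of brain lipoproteins. In IP it was at 175, 105 and 145 CPM in heterozygotes, and at 259, 141, 179.9, 213 and 152 CPM in wild types. In Input it was at 565, 714 and 548 CPM in heterozygotes, and at 979.8, 632, 969.5, 899 and 541 CPM in wild types. Every IP library lay below every Input library, while the genotypes overlapped in both fractions. Within an animal the IP level was 31.0%, 14.7% and 26.5% of Input in heterozygotes and 26.4%, 22.3%, 18.6%, 23.7% and 28.1% in wild types. The log2 fold change of IP over Input was -2.12 (SE 0.16, edgeR adjusted p = 1.58e-08) in heterozygotes and -2.07 (SE 0.12, edgeR adjusted p = 1.64e-10) in wild types.

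Clu (ENSMUSG00000022037, chr14:65968483-65981547, plus strand) encodes clusterin, a secreted chaperone that also travels on lipoproteins. IP libraries held 219, 219 and 231 CPM in heterozygotes, and 360.2, 225, 261, 314 and 213 CPM in wild types. Input libraries held 294, 383 and 377 CPM in heterozygotes, and 501, 379, 486, 449 and 368 CPM in wild types. The 3 heterozygous IP libraries lay close together (SD 6.90 CPM), within the lower end of the wild-type range. In each animal's own lysate the IP level was 74.5%, 57.0% and 61.2% of Input in heterozygotes and 71.9%, 59.3%, 53.7%, 69.8% and 57.9% in wild types. Clu fell by 0.65 on the log2 scale in heterozygotes (SE 0.11, edgeR adjusted p = 6.57e-05) and by 0.68 in wild types (SE 0.08, edgeR adjusted p = 7.89e-07), the fitted value nearest 0 of the 9 in both.

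Cst3 (ENSMUSG00000027447, chr2:148871722-148875692, minus strand) encodes cystatin C, a secreted inhibitor of cysteine proteases such as the cathepsins. Its levels in IP were 167, 109 and 138 CPM in heterozygotes, and 195, 136, 152, 153 and 143 CPM in wild types. Its levels in Input were 510.4, 503 and 461 CPM in heterozygotes, and 758, 556, 626, 629 and 436 CPM in wild types. The fractions were far apart in every animal, and the genotypes overlapped in both. Animal by animal, the IP level was 32.6%, 21.6% and 29.8% of Input in heterozygotes and 25.8%, 24.4%, 24.2%, 24.3% and 32.8% in wild types. The log2 fold change was -1.85 (SE 0.12, edgeR adjusted p = 7.13e-10) in heterozygotes and -1.93 (SE 0.09, edgeR adjusted p = 2.04e-12) in wild types.

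Timp4 (ENSMUSG00000030317, chr6:115241892-115252205, minus strand) encodes an inhibitor of matrix metalloproteases. In IP it was at 8.97, 10.9 and 9.49 CPM in heterozygotes, and at 15.7, 15.6, 10.9, 10.9 and 12.7 CPM in wild types. In Input it was at 23.8, 18.2 and 20.2 CPM in heterozygotes, and at 33.2, 34.4, 28.8, 42.2 and 28.0 CPM in wild types. All 3 heterozygous Input libraries lay below all 5 of the wild types, and in IP het786 overlapped with wt785 and wtBT13 at 10.9 CPM. Within an animal the IP level was 37.6%, 59.6% and 47.1% of Input in heterozygotes and 47.3%, 45.4%, 37.6%, 25.7% and 45.3% in wild types. Timp4 fell by 1.09 on the log2 scale in heterozygotes (SE 0.21, edgeR adjusted p = 0.000262) and by 1.32 in wild types (SE 0.15, edgeR adjusted p = 2.04e-07). Its exons overlap those of Syn2, a synaptic vesicle gene on the other strand, whose reads cannot be told apart where they overlap because the library protocol keeps no strand. Syn2 averaged 482 ± 52.5 CPM in wild-type IP and 367 ± 35.2 in wild-type Input (SD, n = 5), the opposite direction to Timp4.

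Itih3 (ENSMUSG00000006522, chr14:30908572-30923760, minus strand) encodes a heavy chain of the inter-alpha-trypsin inhibitor family, proteins that bind hyaluronan in the matrix. IP libraries held 3.34, 4.42 and 3.05 CPM in heterozygotes, and 12.2, 4.53, 7.10, 5.98 and 6.99 CPM in wild types. Input libraries held 7.34, 4.23 and 6.05 CPM in heterozygotes, and 10.8, 12.5, 13.6, 11.2 and 14.0 CPM in wild types. Among the 9 it alone had every heterozygote below every wild type in both fractions of these animals. In each animal's own lysate the IP level was 45.5%, 104% and 50.4% of Input in heterozygotes and 113%, 36.1%, 52.3%, 53.5% and 49.9% in wild types, so het786 and wt734 did not show the fall. The log2 fold change was -0.71 (SE 0.35, edgeR adjusted p = 0.109) in heterozygotes and -0.78 (SE 0.22, edgeR adjusted p = 0.00472) in wild types. Without wt736 the wild-type value was -0.62 (edgeR adjusted p = 0.0346), and counts were 13 to 28 per library in heterozygous Input, so counting error is large here.

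Htra1 (ENSMUSG00000006205, chr7:130936111-130985660, plus strand) encodes a secreted serine protease. Its levels in IP were 34.3, 24.3 and 39.3 CPM in heterozygotes, and 68.2, 42.6, 60.1, 74.4 and 59.2 CPM in wild types. Its levels in Input were 55.0, 70.3 and 73.0 CPM in heterozygotes, and 122, 70.7, 116, 123 and 81.1 CPM in wild types. In IP every heterozygote was below every wild type, and in Input hetBT13 lay above wt736 alone. Animal by animal, the IP level was 62.3%, 34.6% and 53.9% of Input in heterozygotes and 55.9%, 60.3%, 52.0%, 60.4% and 73.0% in wild types. Htra1 fell by 1.02 on the log2 scale in heterozygotes (SE 0.14, edgeR adjusted p = 7.08e-06) and by 0.73 in wild types (SE 0.10, edgeR adjusted p = 3.14e-06).

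Selenop (ENSMUSG00000064373, chr15:3268547-3280508, plus strand) encodes selenoprotein P, which carries selenium to neurons, and is the gene of the TGA-rich frame shown above. In IP it was at 30.9, 15.6 and 14.9 CPM in heterozygotes, and at 28.9, 23.4, 15.2, 29.0 and 35.7 CPM in wild types. In Input it was at 111, 114 and 109.7 CPM in heterozygotes, and at 167, 146, 149, 156 and 139.7 CPM in wild types. Input levels did not overlap between genotypes in these 8 libraries, but the IX and IXX libraries of hetBT14 were at 181 and 188 CPM, above every wild type, and adding those titles moved the fitted genotype value in Input to -0.21, against -0.44 without them. IP levels overlapped widely, with het729 well above the other heterozygotes. Within an animal the IP level was 28.0%, 13.8% and 13.6% of Input in heterozygotes and 17.3%, 16.1%, 10.2%, 18.6% and 25.6% in wild types, the lowest of the 9 genes in every animal. The log2 fold change was -2.48 (SE 0.23, edgeR adjusted p = 3.17e-06) in heterozygotes and -2.53 (SE 0.17, edgeR adjusted p = 7.48e-08) in wild types, and 0.500% of all genes tested had a value as low or lower in wild types. Its exons overlap those of Ccdc152 on the other strand, and reads of the 2 genes cannot be told apart where they overlap. Ccdc152 had at most 0.270 CPM in the 16 libraries compared, which does not show how reads of the shared stretch were assigned.

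Sparcl1 (ENSMUSG00000029309, chr5:104079111-104113733, minus strand) encodes hevin, a matrix protein that promotes the formation of excitatory synapses. IP libraries held 301, 239.8 and 215 CPM in heterozygotes, and 302, 279.9, 249.7, 245 and 206 CPM in wild types. Input libraries held 466, 575 and 628 CPM in heterozygotes, and 668, 544, 682, 732 and 582 CPM in wild types. In IP the genotypes spanned almost the same range, and in Input only het729 lay below every wild type. In each animal's own lysate the IP level was 64.5%, 41.7% and 34.2% of Input in heterozygotes and 45.2%, 51.4%, 36.6%, 33.5% and 35.5% in wild types. The log2 fold change was -1.15 (SE 0.15, edgeR adjusted p = 4.40e-06) in heterozygotes and -1.31 (SE 0.11, edgeR adjusted p = 1.19e-08) in wild types.

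Mfge8 (ENSMUSG00000030605, chr7:79133768-79149060, minus strand) encodes milk fat globule EGF factor 8, which bridges exposed phosphatidylserine to integrins of phagocytes. Its levels in IP were 44.0, 36.8 and 54.7 CPM in heterozygotes, and 99.1, 48.4, 68.5, 82.6 and 62.4 CPM in wild types. Its levels in Input were 71.3, 73.5 and 80.6 CPM in heterozygotes, and 129, 99.98, 134, 140.0 and 87.2 CPM in wild types. All 3 heterozygotes were below all 5 wild types in Input, and in IP hetBT13 lay above wt736 alone. Animal by animal, the IP level was 61.7%, 50.1% and 67.9% of Input in heterozygotes and 76.9%, 48.4%, 51.2%, 59.0% and 71.5% in wild types. Mfge8 fell by 0.75 on the log2 scale in heterozygotes (SE 0.13, edgeR adjusted p = 0.000123) and by 0.71 in wild types (SE 0.10, edgeR adjusted p = 2.64e-06).

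**Figure D2:**
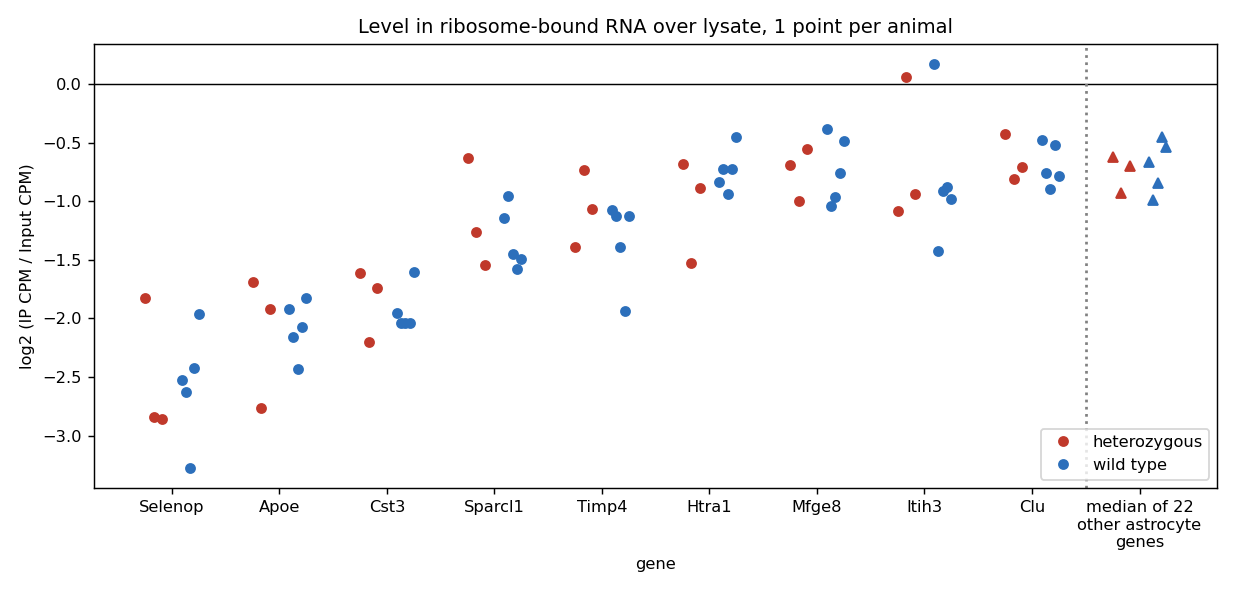
Log2 ratio of IP CPM to Input CPM for each of the 9 genes, 1 point per animal (3 heterozygous in red, left, and 5 wild type in blue, right), with the median over 22 non-secreted astrocyte genes at the right as triangles. Selenop, Apoe and Cst3 sit below the astrocyte median of the same animal in 8 of 8 animals, and Clu in 4 of 8.

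Other astrocyte genes were also lower in IP. The 22 non-secreted astrocyte genes had 1 gene called higher and 15 called lower in each genotype, with a median log2 fold change of -0.65 in heterozygotes and -0.66 in wild types. Glial fibrillary acidic protein (Gfap, log2 -1.31 in wild types), the transcription factor gene Sox9 (-1.25), Slc1a3 (-0.89) and the neurotensin receptor gene Ntsr2 (-1.26) were those of smallest p. The fall was not uniform, since 6 of the 22 had a value above 0 in wild types. The gene called higher there was the enzyme gene Aldh1l1 (0.71), whose IP level was 124% (hetBT13) to 192% (het729) of Input across animals. Gabrg1 (0.36) and Acsbg1 (0.03) were also above 0. Selenop, Apoe and Cst3 lay below the median of the 22 in 8 of 8 animals, Sparcl1 and Timp4 in 7, Itih3 and Htra1 in 6, Mfge8 in 5 and Clu in 4. The difference from the 22 genes was not tested, and the summed level of the 22 was itself 1415 to 1842 CPM in heterozygous IP, 1602 to 2119 in wild-type IP, 2575 to 2882 in heterozygous Input and 2876 to 3689 in wild-type Input.

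Genes of other cell types also moved in the same contrast. Microglial genes were called lower in 10 of 12 cases in heterozygotes (median log2 -1.51) and in 8 of 12 in wild types (-1.30), and oligodendrocyte genes in 9 of 10 in both (-2.13 and -1.92). The complement gene C1qb had a log2 fold change of -2.20 in wild types, and Opalin, a myelin gene, -2.49. Summed microglial levels ran from 77.5 to 104 CPM in heterozygous IP, 103 to 136 in wild-type IP, 177 to 202 in heterozygous Input and 177 to 255 in wild-type Input. Choroid plexus and ependymal genes had 2 and 3 of 5 called lower in heterozygotes and wild types, led by the transthyretin gene Ttr (-2.14 in wild types). Their summed level was 12.7 to 20.1 CPM in heterozygous IP, 7.02 to 31.5 in wild-type IP, 19.7 to 123 in heterozygous Input and 16.5 to 128 in wild-type Input. Oligodendrocyte precursor genes had 0 of 6 called higher and 3 lower in heterozygotes. In wild types 2 of them were called lower (Olig1, -2.06, and Olig2, -1.19) and 1 higher (Cspg4, 0.84). Endothelial and mural genes had 0 of 8 called higher in both, and 4 lower in heterozygotes and 3 in wild types. Meningeal genes had 1 of 5 called higher in both (Dcn, 1.18 in wild types), and 2 lower in heterozygotes and 3 in wild types. General neuronal genes had 2 of 13 called higher and 10 lower in each genotype, with a median of -0.43 in heterozygotes and -0.34 in wild types. Among them the synaptic genes Snap25 (-1.13) and Syt1 (-0.79) fell in wild types, and the neurofilament gene Nefm (1.06) and the glutamate transporter gene Slc17a7 (0.68) rose. No listed marker of these types was at 0 in all libraries, and their part in the values of the 9 genes was not tested. Layer 6 corticothalamic genes had 4 and 5 of 7 called higher in heterozygotes and wild types and 0 lower, led by Ntsr1, a neurotensin receptor gene (3.09 in wild types), and the corepressor gene Tle4 (1.23). Foxp2 itself had a log2 fold change of 0.73 in heterozygotes (edgeR adjusted p = 0.0994) and 0.56 in wild types (edgeR adjusted p = 0.0701).

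**Figure D3:**
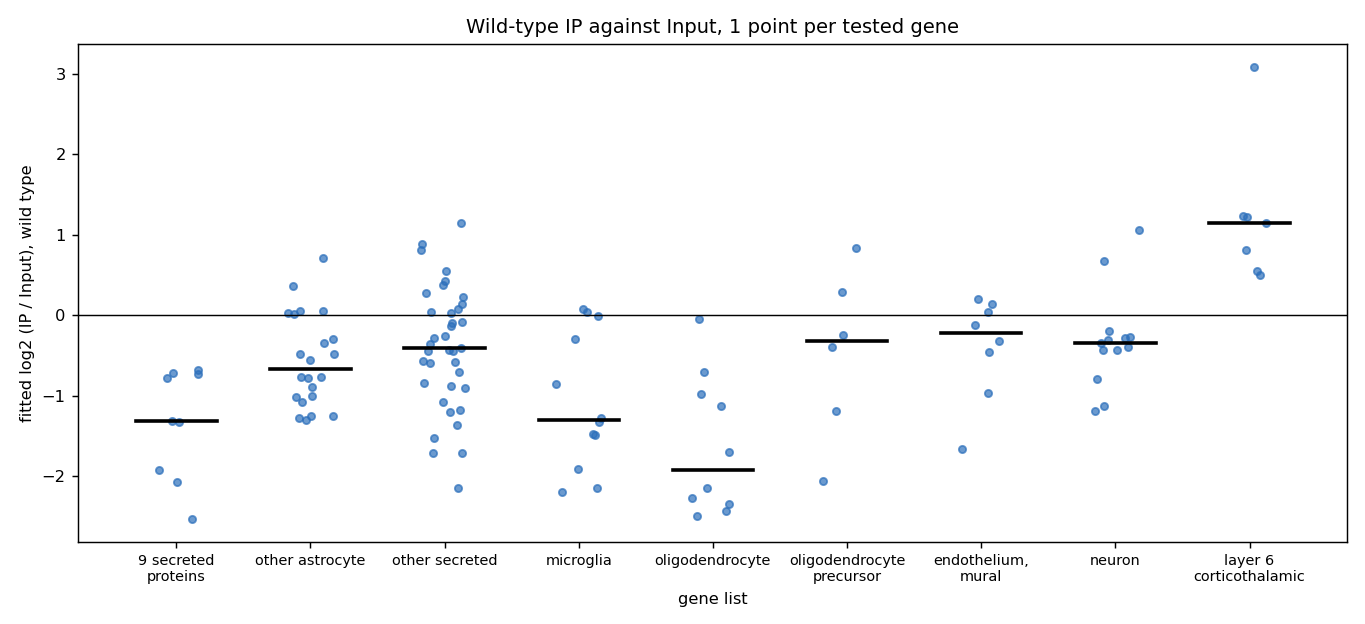
Fitted log2 fold change of IP over Input in wild types, 1 point per tested gene, for the 9 secreted protein genes and 8 lists of genes, with the median of each list as a bar. The median is -1.31 for the 9, -0.66 for other astrocyte genes, -1.92 for oligodendrocytes and 1.15 for layer 6 corticothalamic neurons.

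Genes of other secreted astrocyte proteins were called in both directions. Of 37 tested genes, 5 were called higher and 15 lower in heterozygotes (median log2 -0.53), and 5 higher and 17 lower in wild types (-0.41). In wild types the calcium-binding protein gene S100b (-1.71), the matrix gene Sparc (-1.52), the cytokine gene Il33 (-1.17) and the growth factor gene Ptn (-0.84) were those of smallest p. Relatives of the 9 by family gave 4 higher and 11 lower of 22 in both genotypes (median -0.30 in heterozygotes and -0.16 in wild types), among them the selenoprotein genes Selenow (-1.50), Selenok (-1.21), Gpx1 (-0.95) and Gpx4 (-0.75). These 4 selenoprotein genes, named for their small p, fell in wild types, with fitted values nearer 0 than that of Selenop. Of the other selenoprotein genes in the list, Selenom (-0.61) and Selenof (-0.55) fell, and Selenos (0.02) and Selenot (0.01) stayed near 0. The relatives furthest above 0 in wild types were Cst6 (1.37), Smoc1 (1.05), Htra2 (0.67) and Spock2 (0.41).

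Receptors and partners of the 9 proteins were called in both directions, and their counts are to be read beside the 22.6% called higher and 22.1% called lower of all genes in heterozygotes, and 28.5% and 25.6% in wild types. Among receptors of lipoproteins and lipid exporters 6 of 19 were called higher and 3 lower in heterozygotes, and 7 higher and 4 lower in wild types, where the Apoe receptor gene Lrp1 had a log2 fold change of 0.99, the lipid exporter gene Abcg1 0.85 and the sorting receptor gene Sorl1 0.76. Of proteases of the kinds that cystatins and Timp proteins inhibit, and their relatives, 4 of 18 were called higher in both genotypes and 1 and 2 lower in heterozygotes and wild types, with the cathepsin genes Ctsl at 0.46 and Ctsb at -0.37 in wild types. Among receptors for phagocytosis related to Mfge8, 2 of 11 were called higher in both genotypes and 1 and 2 lower, Tyro3 at 0.59, Axl at -1.40 and Mertk at -1.02 in wild types. Genes of selenium handling had 3 and 4 of 12 called higher and 3 lower in both, with the deiodinase gene Dio2 at -1.62. Genes of synapse organisers had 4 and 5 of 12 called higher and 2 and 3 lower, with the neuroligin gene Nlgn1 at 0.74 and the glypican gene Gpc4 at 1.15.

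All 9 genes had lower mean levels in heterozygotes than in wild types, in IP and in Input. Fewer cells of a type and less RNA per cell cannot be told apart in such samples. In IP the heterozygous mean was 49.0% of the wild-type mean for Itih3, 53.6% for Htra1, 62.6% for Mfge8, 74.3% for Timp4, 75.03% for Apoe, 77.5% for Selenop, 81.2% for Clu, 88.4% for Cst3 and 98.0% for Sparcl1. In Input it was 47.3% for Itih3, 62.2% for Timp4, 63.7% for Mfge8, 64.5% for Htra1, 73.4% for Selenop, 75.7% for Apoe, 80.5% for Clu, 81.8% for Cst3 and 86.7% for Sparcl1. Itih3 was thus the lowest and Sparcl1 the nearest to wild type in both fractions. For Sparcl1 in IP the direction changed with the animals included, since its fitted log2 value was -0.04 and became 0.06 without hetBT13 and 0.03 without wt734.

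In IP every heterozygote was below every wild type for 2 of the 9 genes, Itih3 and Htra1, and 1.7% of all genes tested showed that order and 1.82% the opposite one. In Input this held for 4 of the 9, Mfge8, Itih3, Selenop and Timp4, against 2.9% of all genes, with 2.39% in the opposite order. These shares are read only as a description, because the members were chosen with these differences known. The IX and IXX libraries are not counted in this order. For the 4 genes named in Input, those of het730 lay below every wild-type Input. Those of hetBT14 overlapped with the wild types for Mfge8, Itih3 and Timp4 and lay above them for Selenop. With edgeR 0 of 14755 genes passed in IP and 0 of 13870 in Input after adjustment (percent called 0 in both), 604 (4.09%) and 979 (7.06%) had an unadjusted p below 0.05, and DESeq2 called 3 (0.0203%) and 0. Fitted log2 values of the 9, heterozygous over wild type, ran from -1.04 (Itih3, SE 0.33) to -0.04 (Sparcl1, SE 0.13) in IP, with a median of -0.42. In Input they ran from -1.04 (Itih3, SE 0.23) to -0.20 (Sparcl1, SE 0.11), with a median of -0.44, while the median over all genes was 0.0032 in IP and 0.0055 in Input.

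**Figure D4:**
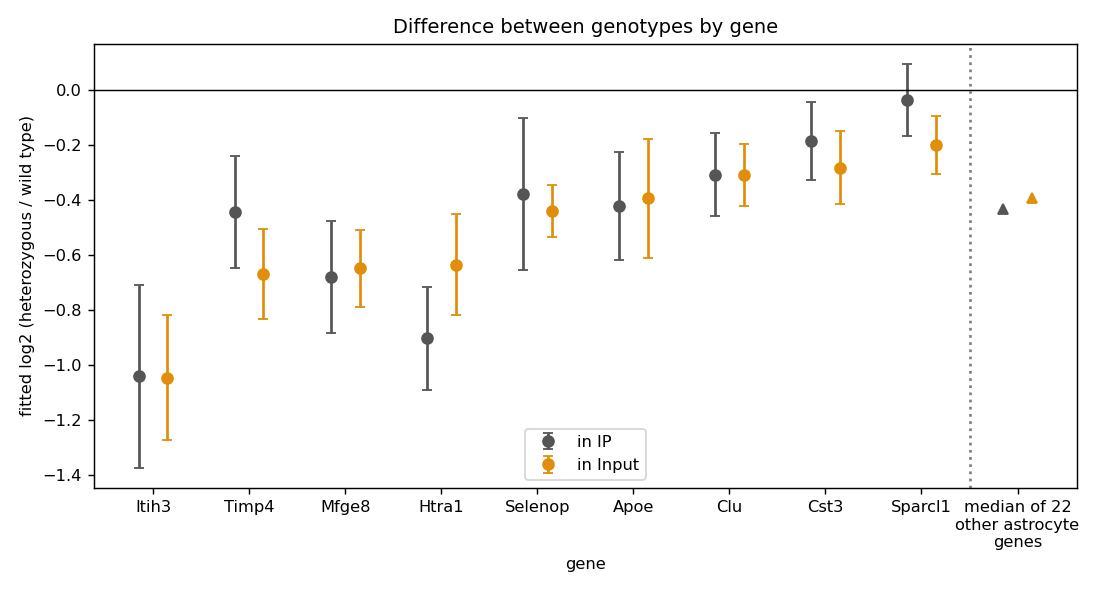
Fitted log2 fold change, heterozygous over wild type, with its SE, in IP (grey, left of each pair; 3 against 5 libraries) and in Input (orange, right), ordered by the Input value, with the median of 22 non-secreted astrocyte genes as triangles at the right. Values run from -1.04 for Itih3 to -0.04 for Sparcl1 in IP, and the triangles lie at -0.43 and -0.39.

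Other astrocyte genes were also mostly lower on average in heterozygotes. Of the 22 non-secreted astrocyte genes 20 had lower means in heterozygotes in IP and 20 in Input, with median percentages of 74.1% and 75.9% of the wild-type mean. The membrane protein gene Mlc1 was at 23.0 ± 7.96 CPM in heterozygous IP and 52.5 ± 13.5 in wild-type IP (SD, n = 3 and 5). Gja1 was at 79.9 ± 6.85 CPM in heterozygous Input and 126 ± 47.3 in wild-type Input. Both were named for their large differences, and other genes of the list differed little. The exceptions to the lower means were Gfap (103% of the wild-type mean) and Sox9 (102%) in IP, and Gfap (107%) and Gli3 (141%, at 5.63 CPM in heterozygotes) in Input. Aldh1l1 was at 94.7% in IP and 97.7% in Input, and the enzyme gene Aldoc at 91.7% and 99.4%. Relative to the summed level of the 22 in the same library, the 9 genes had a median of 88.6% of the wild-type value in IP, with 7 of 9 lower, and of 85.2% in Input, with 8 of 9 lower. On that scale Mfge8 (73.8% in IP and 74.4% in Input), Htra1 (62.6% and 75.3%) and Itih3 (59.8% and 54.9%) were the 3 lowest in IP, Timp4 (87.3% and 72.9%) joined them in Input, and Sparcl1 was at 115% in IP and 101% in Input. Every heterozygote was below every wild type on it for Mfge8 and Htra1 in IP, against 0.352% of all genes, and for Mfge8 and Itih3 in Input, against 0.339%. The summed level itself was lower in heterozygotes (85.4% of the wild-type mean in IP and 86.0% in Input), which by construction raises every gene on this scale in them. Without het729 the IP median on this scale was 77.5%, and Selenop was at 68.8%, against 92.1% with that animal. This scale was chosen after the data were seen. The summed level of the 9 was 765 to 983 CPM in heterozygous IP, 892 to 1341 in wild-type IP, 2103 to 2455 in heterozygous Input and 2277 to 3369 in wild-type Input, overlapping in each fraction.

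The names of the animals compared fall into a BT form and a number-only form, with 1 heterozygote and 2 wild types in the first and 2 and 3 in the second. Among number-only animals the median of the 9 was 72.5% of the wild-type mean in IP and 72.7% in Input, and among BT-named animals 79.5% and 74.1%. In Input 9 of 9 genes were lower within each form of name, and in IP 8 of 9 among number-only animals, where Selenop was at 103%, and 9 of 9 among BT-named ones, where it was at 46.1%. The BT-named values rest on 1 heterozygote, hetBT13. The IX and IXX libraries of hetBT14, also BT-named, had a median of 109% of the mean of all wild-type Input libraries. Those of het730, of the number-only form, had a median of 60.5%. Without het729 the IP median was 66.2%, with Itih3 at 50.7%, Htra1 at 52.2%, Selenop at 57.8%, Mfge8 at 63.4%, Apoe at 66.2%, Timp4 at 77.4%, Cst3 at 79.2%, Clu at 81.9% and Sparcl1 at 88.5%. Selenop thus moved most, being at 77.5% with that animal. The difference of the log2 genotype values, IP minus Input, had a median of 0.05 and ran from -0.29 (Htra1, SE 0.17) to 0.23 (Timp4, SE 0.26), and edgeR called 0 of 14797 genes (percent called 0). That median was -0.09 without het729 and 0.11 without het786.

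Among the related lists, other secreted astrocyte proteins had a fitted log2 value below 0, lower in heterozygotes, for 32 of 37 tested genes in IP (median -0.29) and 30 of 35 in Input (-0.28). The cholesterol-esterifying enzyme gene Lcat was at 4.41 ± 1.23 CPM in heterozygous IP and 9.72 ± 3.28 in wild-type IP (SD, n = 3 and 5), and at 8.28 ± 0.614 in heterozygous Input and 13.0 ± 2.47 in wild-type Input. The axon guidance gene Slit2 was at 5.74 ± 1.58 CPM in heterozygous Input and 9.22 ± 2.19 in wild-type Input, and the phospholipase gene Pla2g7 at 50.0 ± 6.26 in heterozygous Input and 80.3 ± 25.8 in wild-type Input. Relatives by family had medians of -0.08 in IP and -0.07 in Input, and lipoprotein receptors and exporters -0.20 and -0.19. Neuronal genes had medians of -0.0015 in IP and 0.07 in Input, and microglial genes of -0.37 and -0.24, with 11 of 12 lower in both. Endothelial and mural genes had medians of -0.60 in IP, with 8 of 8 lower, and -0.10 in Input, with 6 of 7 lower. The sum over the endothelial and mural list was 78.6 to 84.6 CPM in the IP of heterozygotes, against 89.3 to 142 CPM in that of wild types, with no overlap. In Input the sums, 107 to 124 CPM in heterozygotes and 119 to 157 CPM in wild types, overlapped. Oligodendrocyte precursor genes had medians of -0.62 in IP, with 6 of 6 lower, and 0.03 in Input, with 3 of 6 lower, and their summed levels overlapped. Oligodendrocyte genes were at -0.10 in IP and -0.07 in Input. The part of other cell types in the genotype values of the 9 was not tested.

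The 4 IX and IXX libraries, described only, came apart by animal. In het730 the mean of the 2 libraries was 37.4% (Mfge8) to 86.5% (Selenop) of the wild-type Input mean, with a median of 60.5%, and 7 of 9 genes had both libraries below every wild-type Input, Cst3 and Apoe being the exceptions, against 13.5% of all genes. In hetBT14 it was 86.6% (Timp4) to 121% (Selenop), with a median of 109%, and 0 of 9 were below, against 6.78% of all genes. Mfge8 was at 42.4 and 45.8 CPM in het730 and at 129 and 119 CPM in hetBT14, and Htra1 at 42.0 and 41.3 CPM and at 124 and 113 CPM. Foxp2 was at 57.2% and 58.6% of the wild-type mean in het730 and hetBT14, below every wild type in both. Counting them as heterozygous Input, summed per animal, the median log2 value of the 9 was -0.29 in place of -0.44.

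Genes outside the list that varied most like the 9 were named by Pearson's r with the mean log2 level of the 9, over 12197 genes with a mean of at least 5 CPM. Over the 8 Input libraries these were Lcat (r = 0.978), the receptor gene Gpr37l1 (0.974), Ntsr2 (0.962), the potassium channel gene Kcnk1 (0.954), Itm2a (0.950), Selenos (0.946), Ubfd1 (0.946) and the adhesion gene Ncam1 (0.941). Over the 8 IP libraries they were the semaphorin receptor gene Plxnb1 (0.962), Ttbk1 (0.947), the tetraspanin gene Cd63 (0.934), Saraf (0.924), Marc2 (0.920), Agpat1 (0.917), Pon2 (0.914) and Pitpnm3 (0.914). The leading 8 genes of the fractions had no name in common, and the libraries of a fraction share genotype groups and scaling, so these values are a description.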

How the data were processed

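RNA was measured in cortex of 10 mice in 20 libraries made by the Smart-seq2 protocol, per the labels' protocols; this protocol carries no molecular identifiers and no strand. The authors deposited raw whole-number counts per gene. HTSeq and the build mm10 are named in the submitters' processing notes. Its version and strand setting, the aligner and the annotation release are not given in the sources used here. Symbols came from GENCODE M21 for 24873 of 25317 identifiers, and 444 without a symbol stayed in the fits as genes.

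The 9 members and all gene lists were chosen with earlier results of these data known. Groups followed the titles and genotype labels, and 16 libraries of 8 animals were compared (3 heterozygous and 5 wild type). Counts were fitted with edgeR 4.0.16 (R 4.3.3), by its robust quasi-likelihood test with TMM scaling, filterByExpr at a count minimum of 10 and Benjamini-Hochberg adjustment at 0.05; all 9 members passed the filter in each fit. IP against Input was fitted with the animal as a block, because both are portions of 1 lysate per the labels' protocols. The deviations of an animal's IP and Input from their group means correlated at 0.0545 to 0.217 across 14797 genes. Genotype was fitted in each fraction alone. The SE is the log2 fold change over the root of F. CPM used TMM scaling over 20 libraries, and log2 levels a prior count of 1. Each animal is 1 replicate. The SEs of genotype values include the spread of levels between animals as well as counting error. With the animal as a block, the SEs include the spread between animals of the IP to Input ratio, and not that of levels.

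Alternatives were RLE and upper quartile scaling, no filter and a count minimum of 50, DESeq2 1.42.0, limma-voom (limma 3.58.1), each animal left out, no block, the form of the animals' names, 1 fit of 16 libraries, the IX and IXX libraries added, and levels relative to other astrocyte genes. The fitting steps were tested on simulated data. Named genes were the 9, Foxp2, up to 4 genes per list of smallest p in the wild-type IP against Input fit, and the 8 most like the 9 in each fraction. Up to 2 per list of largest genotype difference with a mean of at least 5 CPM were named as well. Some further astrocyte genes and relatives by family, mainly ones that moved less or the other way, were added to show the spread. All markers named as examples of the astrocyte list were chosen for being familiar.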

Additional observations from a re-analysis of the deposited data

Results flagged for a closer look

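In 27 groups of 5 wild-type values (9 genes by IP level, Input level and IP to Input ratio), 3 had a highest value far from the rest by Dixon's criterion, and chance gives about 1 in 20 such groups. The IP level of Itih3 in wt734 was 113% of its Input level, while the other 4 wild types lay between 36.1% and 53.5%. The IP level of Cst3 was 195 CPM in wt734 and 136 to 153 CPM in the other wild types. The IP level of Cst3 was 32.8% of Input in wtBT14 and 24.2% to 25.8% in the other wild types. The library of wt734 was thus the high one in 2 of the 3 cases.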

How the results depend on the processing

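All 148 alternatives to the main summaries kept the direction and the side of the threshold or lay within the spread between wild types. With 1 animal left out at a time, 9 members stayed called lower in wild types and 8 in heterozygotes. The median log2 genotype value ran from -0.60 (without het729) to -0.29 (without het786) in IP, from -0.53 to -0.41 in Input, and the difference between fractions from -0.09 to 0.11. The other alternatives gave -0.42 to -0.40 in IP, -0.45 to -0.29 in Input and 0.02 to 0.06 for the difference. Of single genes 7 values moved by more than that spread: Itih3 in Input was -1.28 without het729, -0.86 without het786 and -0.53 with the IX and IXX libraries, where Selenop was -0.21. The difference between fractions was -0.09 for Sparcl1 without het729, and -0.05 for Htra1 and 0.28 for Apoe without het786. Itih3 in heterozygotes was called under 0 of 15 alternatives (edgeR, DESeq2 and limma-voom adjusted p of 0.0559 to 0.447).

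Without the replicate block 9 and 8 members were called lower in wild types and heterozygotes, and the median difference was 0.02. No paired analysis was possible for genotype because the heterozygotes and wild types compared share only the number BT13. Without the low-count filter edgeR called 28 of 23426 genes in Input, against 0 with it, and 11 of 24857 for the difference, against 0. In IP DESeq2 called 3 of 14755 genes, against 0 by edgeR. With upper quartile scaling the wild-type calls were 3429 higher and 4509 lower, against 4223 and 3787 with TMM. Few counts limit Itih3 most.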
